A study of Mus musculus with 6 samples.

Results

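The 9 genes Cpe, Cpd, Cpz, Cpxm1, Furin, Pcsk5, Pcsk6, Pcsk7 and Pam, which encode enzymes that process peptide precursors or are related to such enzymes, were found by symbol among the 17213 genes of the count table. The set was chosen by name, and it was chosen because Cpe was higher in the libraries labelled KO than in those labelled Het. The contrast between the labels is therefore only described for these genes, and nothing is supported with it. Calls from the tests over all genes are counted for the set, but nothing is read from them. RNA was measured in 6 libraries of tdTomato-positive, sorted dental follicle cells from mandibular molars of mice at postnatal day 8, with 3 libraries per group. The Het libraries have the genotype Pth1r(+/-) and the KO libraries Pth1r(-/-), which the series text calls conditional. Both groups carry the tdTomato reporter, which the labels tie to cells positive for PTHrP, and both received tamoxifen, at day 3 by the series text and at day 8 by the sample descriptions. The driver of the recombinase, the number of mice behind a library and the share of cells that lost the receptor gene are not given in the labels or the series text.

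Peptide hormones and many growth factors are made as inactive precursors. Proprotein convertases such as furin cut them behind basic residues in the secretory pathway, carboxypeptidases such as carboxypeptidase E then trim those basic residues from the new end, and peptidylglycine alpha-amidating monooxygenase, encoded by Pam, can convert a terminal glycine into an amide. PTHrP, the ligand of the targeted receptor, is itself made as a precursor that convertases cut, and the same holds for BMP and TGF-beta family factors that act in tooth and bone.

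Libraries held 34019925 to 66147200 counts. Het replicate 2 lay far from the rest: principal component 1 of log2 CPM (38.6% of the variance) set it against the other 5, and it had counts for 14668 genes against 15175 to 16128. It was also the library with the lowest value for 30.2% of the 14632 genes tested and the one with the highest for 28%. Pth1r, the targeted gene, went against the labels, at 371, 286 and 346 CPM (counts divided by the TMM-scaled library size) in the Het libraries and 961, 608 and 472 CPM in the KO libraries. Here and in all that follows, 3 values for a group are those of replicates 0, 1 and 2 in that order. For Pth1r the fitted log2 fold change of KO against Het was 1.02 (SE 0.28), and its cause was not tested. A count over the whole gene cannot resolve single exons. Every direction here is that of the libraries labelled KO against those labelled Het. The 9 marker genes of mesenchyme and follicle had counts in every library, with a summed level of 29380 to 80760 CPM. The collagen genes Col1a1, Col1a2 and Col3a1 made up most of that sum in every library. The others ranged from 61.9 CPM (Pdgfrb) to 879 CPM (Postn), both in Het replicate 2. Markers of dental epithelium were also high, at 5188 to 10840 CPM in sum over 8 genes. Neuroendocrine markers, the class of cell best known for prohormone processing, summed to 3.17 to 7.63 CPM over the 4 of 5 genes in the table.

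Sequences upstream of the annotated starts were taken from a RefSeq table (GRCm38.p6, the assembly of mm10), which had entries for 8 of the 9 genes, all but Cpe. Those of Furin, Pcsk5 and Pam are shown because these 3 genes had their lowest level in the same library, Het replicate 2, as described further on. Pcsk6 did so too, but its window starts inside the annotated gene (chromosome 7, 65861886 to 65862135, where the gene begins at 65861734) and is not shown. Each is the 250 bases before the start, 5′ to 3′ on the gene's strand, from chr7:80405437-80405686, chr19:17837633-17837882 and chr1:98095647-98095896, all on the minus strand. Capitals mark the core of the cAMP response element, TGACG, and the GC box, GGGCGG, on either strand. The receptor encoded by Pth1r signals through cAMP, which is why the first of these was searched.
Furin: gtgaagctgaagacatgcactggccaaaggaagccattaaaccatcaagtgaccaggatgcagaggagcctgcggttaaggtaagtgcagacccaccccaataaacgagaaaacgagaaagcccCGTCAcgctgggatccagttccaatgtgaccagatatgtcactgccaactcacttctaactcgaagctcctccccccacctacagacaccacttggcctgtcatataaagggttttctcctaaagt
Pcsk5: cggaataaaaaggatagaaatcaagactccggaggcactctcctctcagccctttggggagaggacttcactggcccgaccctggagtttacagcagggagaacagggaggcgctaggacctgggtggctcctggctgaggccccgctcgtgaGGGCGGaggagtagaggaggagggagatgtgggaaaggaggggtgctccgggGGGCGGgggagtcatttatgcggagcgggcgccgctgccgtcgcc
Pam: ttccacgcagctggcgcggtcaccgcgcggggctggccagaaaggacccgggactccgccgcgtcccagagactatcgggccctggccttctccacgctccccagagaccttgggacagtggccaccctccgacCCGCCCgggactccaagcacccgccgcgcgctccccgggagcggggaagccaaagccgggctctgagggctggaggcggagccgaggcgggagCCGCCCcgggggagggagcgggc
The core stood 126 bases before this start of Furin, and it was not among the letters of the Pcsk5 and Pam windows. Of the 10 entries of the 8 genes, 2 held it, the Furin entry shown and that of Cpz at 192 bases before the start, against 17.8% of all 32851 entries in the table. The full element TGACGTCA was in 0 of the 10 entries and in 1.55% of all entries. The GC box was in 9 of the 10 entries, all but the Furin entry shown, and in 32.7% of all entries. It stood at 2 places each in the Pcsk5 and Pam windows. The entries are not independent, as the other Pam entry (chr1:98095633-98095882) overlaps the window shown. For 8 of the 10 entries, the first 30 bases from the start were in a GENCODE transcript of the gene. The Cpxm1 entry and the Furin entry not shown were the exceptions. GC content of the windows shown was 50.4% for Furin, 64.0% for Pcsk5 and 75.6% for Pam, where the median of all entries was 52.4%. Furin has another entry, at a start inside the gene (chromosome 7, 80402813 to 80403062), which held no core, had 2 GC boxes and a GC content of 83.2%. A match is a description of letters and not a site of binding.

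Per gene length, Cpe was by far the most abundant of these genes. FPKM, the authors' fragment counts scaled by gene length and library size, sets levels of different genes side by side, and the mean over the 6 libraries was 499.8 for Cpe (325 to 778), which ranked it 103rd among all genes in that table. Cpxm1 followed at 145.9 FPKM (113 to 216), and neither its range nor that of Cpe touched the range of the gene below it. Pcsk6 at 37.9 FPKM (10.5 to 71.9), Furin at 37.6 FPKM (13.9 to 53.7), Cpz at 28.3 FPKM (19.0 to 38.9), Pam at 21.1 FPKM (12.2 to 27.9), Pcsk5 at 16.1 FPKM (6.16 to 22.0) and Pcsk7 at 12.2 FPKM (8.19 to 14.4) formed an order in which the ranges of all neighbours overlapped. Cpd was lowest at 4.24 FPKM (2.35 to 6.56), with a range below that of Pcsk7. Ordered by median FPKM instead, Furin and Pcsk6 changed places.

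**Figure D1:**
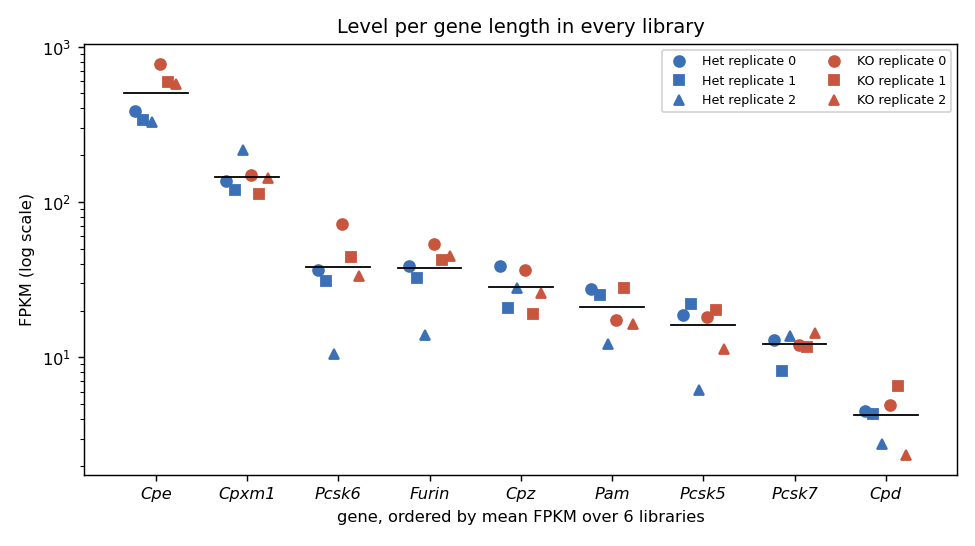
FPKM of each gene in every library on a log axis, with blue symbols for Het and red for KO libraries and a line at the mean of 6. Cpe lies above all others at 325 to 778 FPKM, and 6 genes from Pcsk6 to Pcsk7 overlap with their neighbours.

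Carboxypeptidase E, the trimming enzyme of the regulated secretory pathway (Cpe, chromosome 8, 64592542 to 64693054, minus strand, mm10 as in GENCODE M21), was at 757, 654 and 744 CPM in the Het libraries. It was at 1537, 1149 and 1318 CPM in the KO libraries. All 3 KO libraries were above all 3 Het libraries, and the lowest KO value was 1.52 times the highest Het value. Means were 718 ± 56.1 CPM in the Het and 1335 ± 194 CPM in the KO libraries (SD, n = 3 each), and the fitted log2 fold change was 0.89 (SE 0.20). This is the value for which the set was chosen. With 1 library left out in turn it ran from 0.80 to 0.99, and without Het replicate 2 it was 0.92. In bulk samples, a change in the number of cells that make a transcript and a change in its amount per cell cannot be told apart.

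Levels of some cell type markers also differed between the labels where Cpe did. The 7 osteoblast markers summed to 4965 to 11960 CPM in the Het and 12660 to 20830 CPM in the KO libraries, and all 7 had higher fitted values in KO. Ibsp, a bone matrix protein gene, made up most of that sum, and without it the ranges were 1503 to 3004 and 2948 to 4410 CPM, which overlap. The 5 pericyte and smooth muscle markers summed to 943.5 to 1108 CPM in the Het and 652 to 777 CPM in the KO libraries, with 3 of 5 lower. Acta2 made up most of that sum, and Cspg4 and Rgs5 had higher fitted values in KO (log2 fold changes 0.85 and 0.43). The 5 endothelial markers summed to 8.91 to 15.1 and 5.25 to 8.02 CPM, also with 3 of 5 lower, while Tek and Emcn had higher fitted values. The part of these cell types in the level of Cpe was not tested. Sums for epithelium, macrophages, nerve, erythroid and neuroendocrine cells overlapped between the groups, and the neuroendocrine gene Chga was at or near 0 in all libraries (at most 1.06 CPM). The one-sided direction was not particular to osteoblast markers. All 7 macrophage and leukocyte markers had higher fitted values in KO too, at sums of 19.0 to 85.0 CPM in the Het and 25.7 to 131.8 CPM in the KO libraries. Of all genes tested, 49% had higher fitted values in KO.

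The other carboxypeptidase genes of the set did not separate the labels. Cpxm1 (chromosome 2, 130390775 to 130397574, minus strand), a secreted family member regarded as lacking enzyme activity, was at 325, 289 and 437 CPM in the Het and 363, 277 and 282 CPM in the KO libraries. Its highest value was in Het replicate 2, and the groups overlapped. Cpz (chromosome 5, 35502218 to 35525698, minus strand), a matrix-bound carboxypeptidase with a frizzled-like domain, was at 83.6, 45.6 and 48.0 CPM in the Het and 80.9, 42.1 and 43.0 CPM in the KO libraries. Replicate 0 was the high library in each group, and the fitted log2 difference of -0.09 had an SE of 0.34. Cpd (chromosome 11, 76778424 to 76847018, minus strand), the membrane-bound carboxypeptidase of the trans-Golgi network, was at 43.3, 38.3 and 38.7 CPM in the Het and 46.8, 59.2 and 32.8 CPM in the KO libraries. The KO libraries held both its highest and its lowest value. With 1 library left out, the fitted log2 differences ran from -0.01 to 0.40 for Cpd, from -0.45 to 0.23 for Cpz and from -0.31 to 0.01 for Cpxm1.

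As Cpe differed and the others overlapped, its share of the family's summed FPKM also differed. Cpe made up 68.3%, 70.2% and 56.9% of the FPKM of the 4 carboxypeptidase genes in the Het libraries and 80.4%, 81.1% and 77.0% in the KO libraries. Cpxm1 took 24.0%, 24.6% and 37.7% in the Het and 15.3%, 15.4% and 19.2% in the KO libraries. The order Cpe, Cpxm1, Cpz, Cpd was the same in all 6 libraries. These shares use the contrast that chose the set and are a description.

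**Figure D2:**
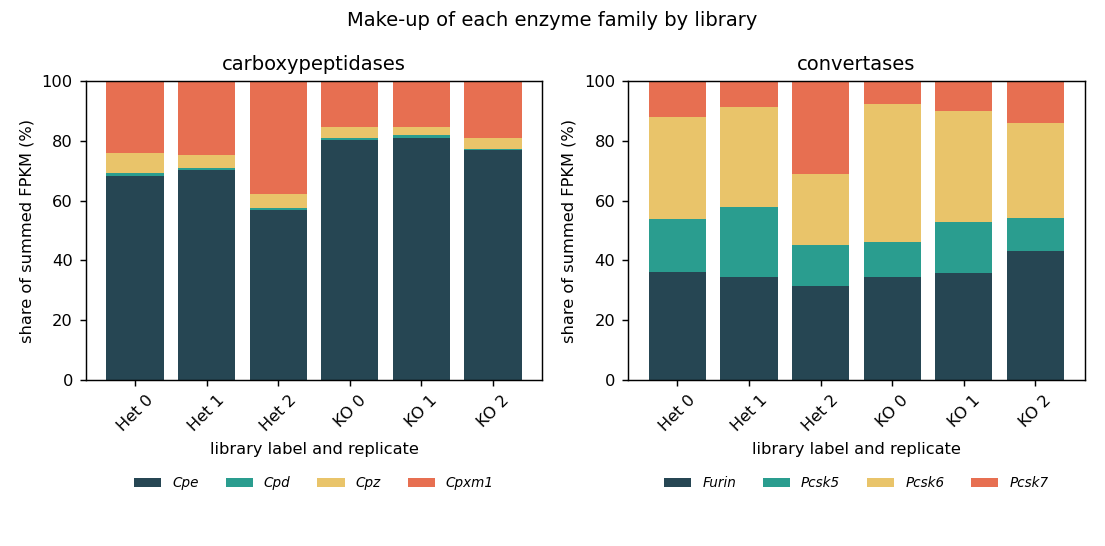
Share of the summed FPKM of 4 carboxypeptidase genes (left) and 4 convertase genes (right) in each library, in percent. Cpe holds 56.9 to 70.2% of the left bars in the Het and 77.0 to 81.1% in the KO libraries. The share of Pcsk7 is larger in Het replicate 2 than in any other library, at 31.0% of the right bar, where Furin holds 31.4%.

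Furin and Pcsk6 had the widest differences among the convertase genes, and both rested in part on Het replicate 2. Furin (chromosome 7, 80388585 to 80405436, minus strand), the convertase of the constitutive secretory pathway, was at 165, 139 and 53.0 CPM in the Het and 233, 185 and 160 CPM in the KO libraries. Het replicate 0 lay above KO replicate 2, so the groups overlapped. Means were 119 ± 58.6 and 193 ± 36.9 CPM (SD, n = 3 each), a log2 fold change of 0.70 (SE 0.37), which became 0.35 without Het replicate 2. Pcsk6 (chromosome 7, 65861734 to 66050386, plus strand), which encodes the matrix-associated convertase PACE4, was at 158, 132 and 40.3 CPM in the Het and 317, 190 and 123 CPM in the KO libraries. Its highest library was 7.86 times its lowest, the widest span of the 9 genes, and KO replicate 2 lay below Het replicates 0 and 1. The log2 fold change of 0.93 (SE 0.49) fell to 0.54 when Het replicate 2 was left out and to 0.53 when KO replicate 0 was. From high to low, both genes had KO replicate 0, KO replicate 1 and Het replicate 0 first and Het replicate 2 last.

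**Figure D3:**
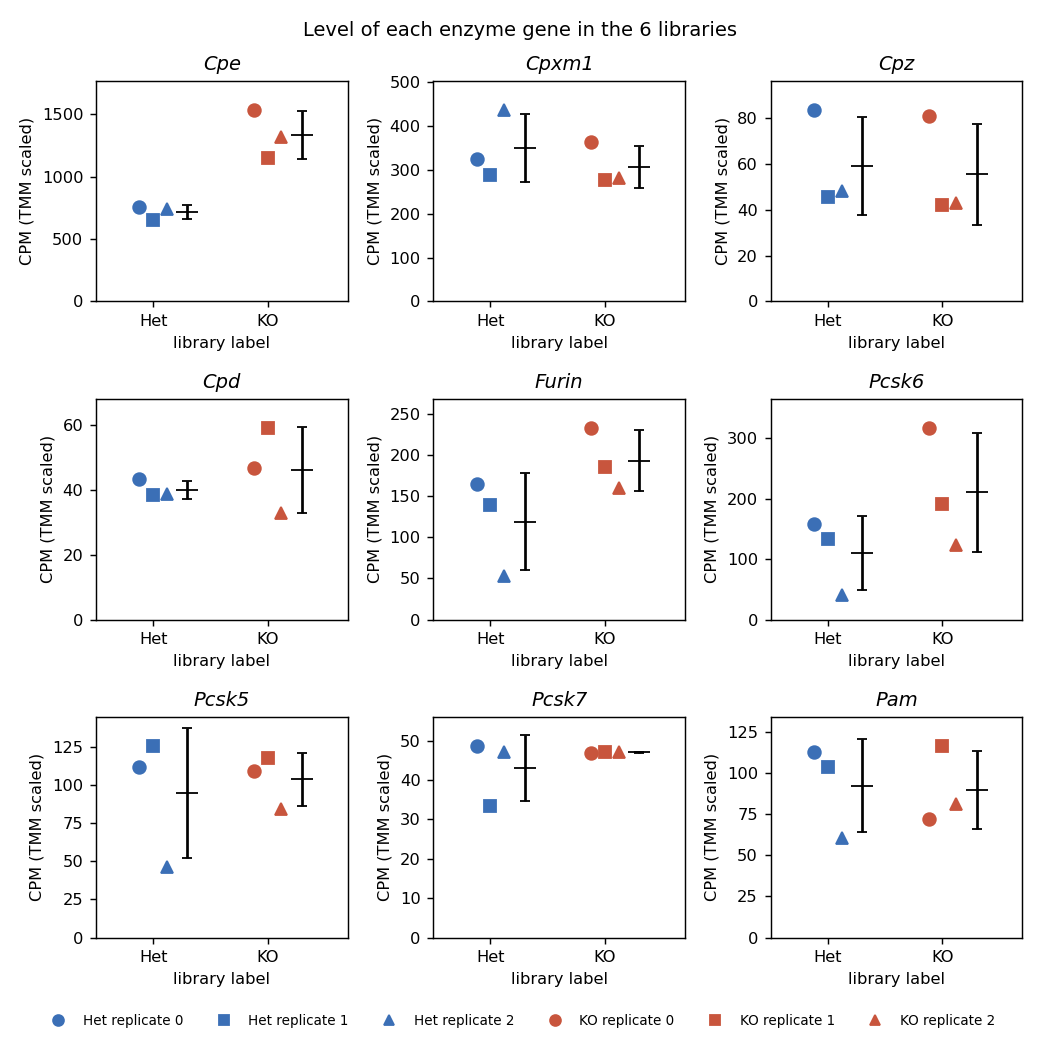
CPM of each gene in the 3 Het (blue) and 3 KO (red) libraries, with the mean and SD of each group in black and the symbol giving the replicate. Cpe alone has no overlap between the groups, and Het replicate 2 is the lowest point for Furin, Pcsk5, Pcsk6 and Pam.

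Pcsk5 (chromosome 19, 17432319 to 17837632, minus strand), a convertase with soluble and membrane-bound forms, was at 112, 126 and 46.1 CPM in the Het and 109, 118 and 84.4 CPM in the KO libraries. Apart from Het replicate 2, the Het values lay within or above the KO values, and the fitted log2 difference of 0.13 became -0.19 without that library. Pcsk7 (chromosome 9, 45906497 to 45929726, plus strand), a membrane-bound convertase, was at 48.7, 33.5 and 47.2 CPM in the Het and 46.9, 47.1 and 47.1 CPM in the KO libraries. It had the narrowest span of the 9 genes, 1.45-fold from lowest to highest library, and was the only convertase gene here that was not lowest in Het replicate 2. The exons of Pcsk7 share 415 bases with Rnf214 and 108 bases with Tagln on the opposite strand, which is 7.98% and 2.08% of its 5202 exon bases. No label gives the strand setting of the counting, so reads there cannot be assigned, and the estimated counts of Pcsk7 were 2.85% above its counts.

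Pam (chromosome 1, 97795114 to 98095646, minus strand), the only amidating enzyme, was at 113, 104 and 60.4 CPM in the Het and 72.1, 117 and 81.0 CPM in the KO libraries. The groups overlapped, with means of 92.4 ± 28.1 and 89.9 ± 23.5 CPM (SD, n = 3 each) and a fitted log2 difference of -0.04, which became -0.26 without Het replicate 2. KO replicate 0, the highest library for Cpe, Furin and Pcsk6, was the lowest KO library for Pam. Of the 9 genes, 4 had their lowest value in Het replicate 2, the library that stood apart, where 30.2% of all genes tested did. Het replicate 2 was also the highest library for 1 of the 9, Cpxm1, and for 28% of all genes tested. The convertase genes summed to 44.3 FPKM there, against 93.6 to 156 FPKM in the other 5 libraries, while the carboxypeptidase sum of 572 FPKM lay within the range of those libraries.

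Over the set, 1 of 9 genes, Cpe, had no overlap between the groups with KO higher, where 5.84% of the 14632 genes tested did, and 0 had none with KO lower (4.83%). All 9 passed the filter on low counts. In edgeR's quasi-likelihood test over all genes 0 of 9 were called, as were 0% of all genes, at a Benjamini-Hochberg adjusted p of 0.05. At an unadjusted p under 0.05 there was 1 of 9 (4.29% of all genes), and DESeq2 called 1 of 9 (0.519% of all genes), in both cases Cpe. Since Cpe was chosen for this contrast, nothing is read from these counts. Fitted values were higher in KO for 6 and lower for 3, with a median log2 fold change of 0.13 with or without Cpe, against -0.01 over all genes tested.

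**Figure D4:**
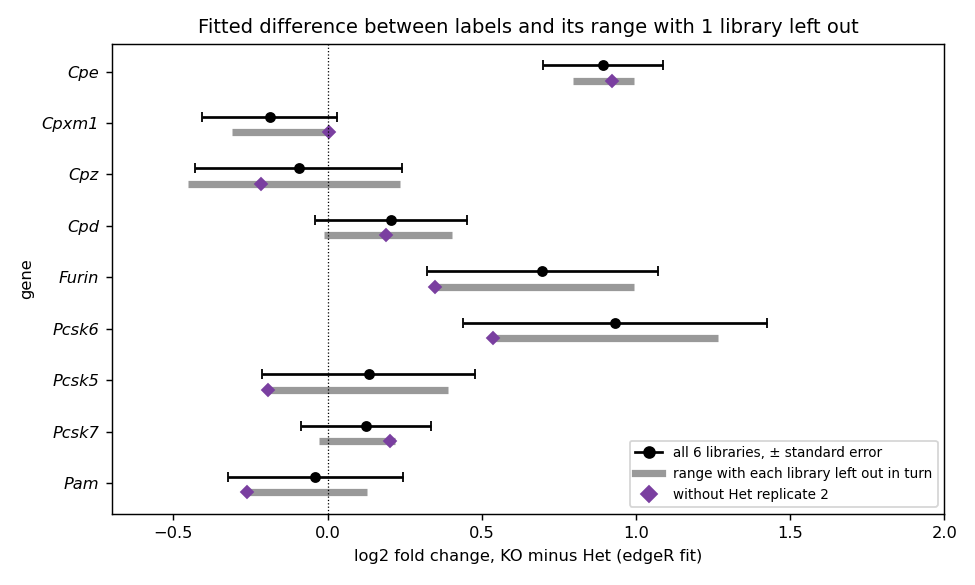
Fitted log2 fold change of KO against Het libraries with its standard error (black) and the range when each library is left out in turn (grey), with the fit without Het replicate 2 in purple. Cpe, Furin and Pcsk6 stay above 0 in every fit, and the grey bars of the other 6 genes cross 0.

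By Pearson's correlation of log2 CPM over the 6 libraries, the genes most like Cpe among the 11215 compared (average log2 CPM no lower than 2) were Stmn2, a regulator of microtubules in neurons (r = 0.987), Ncald, a calcium sensor (0.986), Syt9, a calcium sensor of vesicle fusion (0.985), Galnt1, which starts O-glycosylation (0.985), and Msto1 (0.983). All 5 were higher in every KO library than in every Het library, as the likeness to Cpe implies. Stmn2 was at 5.60, 3.42 and 4.47 CPM in the Het and 16.2, 11.8 and 13.9 CPM in the KO libraries. Galnt1 was at 189, 174 and 181 CPM in the Het and 260, 231 and 228 CPM in the KO libraries. With 6 points, which share the labels and the libraries, these values describe a ranking only. Among the other enzymes, r with Cpe was highest for Furin (0.598) and Pcsk6 (0.590) and lowest for Pam (-0.205).

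Partner genes were taken from 7 lists with 113 genes, of which 101 were in the count table and 87 were tested. In edgeR 0 of the 87 were called over all genes, as were 0% of all genes, and 6 had an unadjusted p under 0.05, where 4.29% of all genes did. DESeq2 called 2, Pdgfa and Apln, both higher in KO (0.519% of all genes were called in either direction). Apln had no counts in the Het libraries, so it could be found only as higher in KO. Fitted values were higher in KO for 33 and lower for 54 genes, while 49% of all genes tested were higher.

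Among the other convertases, Mbtps1, the site-1 protease that cuts membrane-bound transcription factors, was the most abundant, at 224 ± 29.97 CPM in the Het and 280 ± 54.2 CPM in the KO libraries. Pcsk4 and Mbtps2 were at 5.40 ± 2.15 against 6.13 ± 0.639 CPM and 10.3 ± 2.44 against 9.79 ± 1.77 CPM (SD, n = 3 each), and groups of all 5 tested genes overlapped. The convertases of neuroendocrine granules were nearly silent: Pcsk1 averaged 0 CPM in the Het and 0.203 CPM in the KO libraries, and Pcsk2 0.951 and 0.766 CPM. Of the granule proteins, 4 of 8 were tested, and Chgb, at 1.74 ± 1.57 against 3.73 ± 2.56 CPM, Scg2, at 1.39 ± 1.96 against 1.85 ± 2.40 CPM, and Scg3, at 0.939 ± 0.813 against 0.544 ± 0.0735 CPM, were the most abundant. Cpe was thus at 654 CPM or more in libraries where these granule genes averaged at most 3.73 CPM in a group.

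Helpers and inhibitors had 1 higher and 4 lower fitted values among 5 tested, with a median log2 fold change of -0.58. Lxn, a carboxypeptidase inhibitor, was at 99.3 ± 42.0 against 73.9 ± 7.41 CPM, with overlap. Gbp2, an interferon-induced protein that restrains furin, was at 16.7 ± 4.14 CPM in the Het and 11.2 ± 1.27 CPM in the KO libraries. Serpinb8, a furin inhibitor, was at 10.9 ± 6.73 and 19.3 ± 1.45 CPM. Both were without overlap, where 10.7% of all genes tested had none in either direction. The gap was narrow for Gbp2, with a lowest Het value of 12.8 and a highest KO value of 12.5 CPM. Serpinb8 was at 16.7, 12.4 and 3.54 CPM in the Het libraries, lowest in Het replicate 2, and its lowest KO value was 17.8 CPM. Pcsk1n, which encodes the convertase inhibitor proSAAS, was at 4.97, 2.26 and 3.93 CPM in the Het and 0.755, 0.904 and 1.27 CPM in the KO libraries. Its groups did not overlap either. Of the 5 genes tested, 1 had no overlap with KO higher and 2 with KO lower. Among all genes tested, these shares were 5.84% and 4.83%. Pcsk1n was singled out after its values were seen, and no gene of this list was called in edgeR or DESeq2.

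Of 19 other carboxypeptidase genes, 10 were tested, 2 with higher and 8 with lower fitted values (median log2 fold change -0.29). The most abundant by mean FPKM were the lysosomal Scpep1 (348 ± 100.6 against 311 ± 50.9 CPM), Aebp1, a collagen-binding family member (482 ± 116 against 457 ± 118 CPM), and the lysosomal Ctsa (258 ± 136 against 191 ± 33.9 CPM). Their groups overlapped. Cpxm2, a relative of Cpxm1, was at 17.7, 9.44 and 12.6 CPM in the Het and 7.39, 4.16 and 5.31 CPM in the KO libraries, without overlap. It was singled out after its values were seen, and 4.83% of all genes tested had no overlap with KO lower. Peptidases that break down peptides were evenly divided, with 8 of 15 higher, 7 lower and a median of 0.01. Mme, the cell surface neprilysin, was at 329 ± 43.8 against 336 ± 81.8 CPM, the insulin-degrading enzyme Ide at 155 ± 39.3 against 182 ± 42.7 CPM and Prep at 152 ± 25.5 against 139.7 ± 25.5 CPM.

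Precursors that furin-type convertases cut had 11 higher and 19 lower fitted values among 30 tested (median log2 fold change -0.19). The most abundant by mean FPKM were Mmp14, Pthlh and Igf1, all with overlap between the groups. Mmp14, a membrane-bound matrix metalloproteinase, was at 1322 ± 68.3 CPM in the Het and 1357 ± 242 CPM in the KO libraries. Pthlh, the gene of PTHrP, was at 289 ± 47.4 and 317 ± 28.5 CPM, and Igf1 at 1499.6 ± 139 and 1291 ± 180 CPM (SD, n = 3 each). Pdgfa, a growth factor precursor, was the only gene of the list without overlap, at 68.7, 60.2 and 67.2 CPM in the Het and 166, 137 and 120 CPM in the KO libraries, and the only one DESeq2 called. Over all genes, 10.7% of those tested had no overlap in either direction and DESeq2 called 0.519%. EdgeR's adjusted p over all genes was 0.634 for Pdgfa.

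Precursors of amidated or granule peptides had 5 higher and 13 lower fitted values among 18 tested, with a median of -0.18. Penk, the enkephalin precursor and a substrate of carboxypeptidase E, was at 183, 191 and 208 CPM in the Het and 133, 142 and 114 CPM in the KO libraries. Every KO library lay below every Het library for Penk, with a log2 fold change of -0.58 (SE 0.18), and edgeR's adjusted p over all genes was 0.904. Calca, the precursor of calcitonin and CGRP, was at 37.1 ± 17.5 against 47.8 ± 11.2 CPM with overlap, and Nts, the neurotensin precursor, at 16.6 ± 2.99 against 10.7 ± 3.18 CPM without. Of the 18 tested genes of this list, 2 had no overlap with KO higher and 3 with KO lower. Over all genes tested the shares were 5.84% and 4.83%. Apln, the apelin precursor, had 0 counts in all 3 Het libraries and 123, 131 and 52 in the KO libraries, which is at least 78.2-fold higher when 3 counts are set as the limit for the Het libraries together. The gene was nearly silent in the KO libraries too, at 2.02, 2.15 and 0.989 CPM, with a mean of 0.27 FPKM over the 6 libraries. Having 0 counts in the Het libraries, Apln could pass the filter on low counts only through the KO libraries. Its place among the genes higher in KO and without overlap was fixed by that filter, and nothing is read from it. EdgeR's adjusted p over all genes was 0.634 for Apln.

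**Figure D5:**
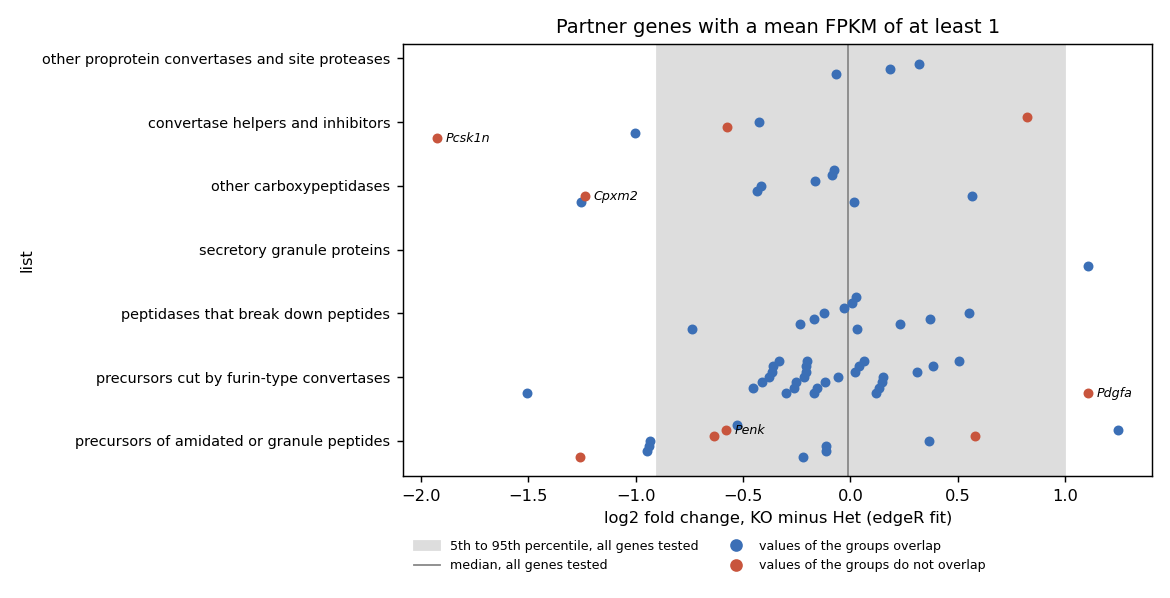
Fitted log2 fold change of KO against Het libraries for 71 partner genes with a mean FPKM of at least 1, by list, red where the groups do not overlap. The grey band spans the 5th to 95th percentile of all genes tested (-0.901 to 1.001), and 9 of the 71 genes have no overlap between the groups, where 10.7% of all genes tested have none in either direction.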

How the data were processed

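HTSeq, Cufflinks, Cuffdiff, Bowtie2 2.2.1, TopHat2 2.0.13, DESeq2 and FastQC were used by the authors with mm10, per the submitters' processing notes, which give no role for any of them. Per the labels' protocols, cDNA from sorted cells was amplified with a low-input kit, without mention of molecular identifiers, so the floor for a count of 0 covers counting error only. The main table holds whole-number counts for 17213 genes as deposited by the authors. A further deposited table holds estimated counts, 1.66% of them not whole (tolerance 1e-06), which were rounded, and another the authors' FPKM values. Groups and replicate numbers came from the titles. No label says that libraries came from separate animals, so p-values reflect the spread among these samples, which may be technical. No pair of libraries agreed within sampling noise (smallest chi-square over its degrees of freedom, 91.3).

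For the counts, edgeR 4.0.16 under R 4.3.3 gave quasi-likelihood tests (two-sided, TMM scaling, default filter, Benjamini-Hochberg adjustment over 14632 genes). Alternatives were DESeq2 1.42.0, limma 3.58.1 on log2(FPKM + 1) and log2(FPKM + 0.1), RLE scaling, other filters (none; CPM of at least 1 in 3 libraries), the estimated counts, a replicate block and leaving out each library. Fold changes on the log2(FPKM + pseudocount) scale understate the change of low genes. The fit was tested on simulated data. CPM compares a gene between libraries and FPKM compares genes. Positions came from GENCODE M21. The members and lists were chosen with earlier results of these data known. All members were named, with the 3 genes of highest mean FPKM in each list, the 5 genes most correlated with Cpe, and genes that make up a count of 5 or fewer. For 1 cell type marker no value is reported here.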

Additional observations from a re-analysis of the deposited data

How the results depend on the processing

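In edgeR 0 genes were called over all genes, and 0 under RLE scaling, either other filter, the estimated counts and the replicate block. DESeq2 called 87 genes, 66 higher and 21 lower in KO. Limma called 1 gene on log2(FPKM + 1), whether or not low values were filtered, and 1 on log2(FPKM + 0.1). Leaving out each library in turn gave 0 to 1 genes, the 1 without Het replicate 0. The causes were not tested. The log2 fold change of Cpe was 0.88 to 0.89 over the 9 settings that kept all libraries and 0.80 to 0.99 over the 6 that left one out. Leaving out a library changed the sign of Cpd, Cpz, Cpxm1, Pcsk5, Pcsk7 and Pam, whose differences are within the spread between replicates. Furin and Pcsk6 kept their direction in all 15 settings, at 0.35 to 0.99 and 0.53 to 1.27.

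By the labels, same-numbered libraries of the groups share a number and have consecutive sample numbers in their titles. No label says whether they were paired. Deviations from the group means correlated at 0.169, 0.0746 and 0.0694 for replicates 0, 1 and 2 over all genes tested. Every library correlated best with its own number, which is a hint from the data and not the design. With the replicate number as a block, 0 genes were called and the log2 fold change of Cpe was 0.89.

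With 3 libraries a group and an SD that reached 61.7 CPM on a mean of 110 CPM for Pcsk6 in the Het libraries, the spread between libraries limits these comparisons more than the depth of at least 34019925 counts.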
